A study of Rattus norvegicus with 24 samples.

Results

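The framework genes of the rat MHC examined here are those genes of the complex that encode neither class I or class II molecules nor the machinery of antigen presentation, the TNF cluster, complement, heat shock proteins, olfactory receptors or epidermal proteins. They were chosen by symbol from the MHC gene list of the study, which holds 223 symbols, by leaving out the genes of those other groups. The rule gave 114 genes with 290 probes, of which 110 genes with 282 probes were found in the array files, among 7257 genes and 8453 probes in all. The rule itself uses no measured value, although it was drawn up with earlier results of these data known. *Tesb*, *Btnl4*, *Tnx* and *G7e* had no probe in the files.

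The term framework genes refers to the blocks of genes that keep their order in the MHC of different mammals and between which the class I and class II genes have expanded. Many work in general cell processes such as transcription, RNA processing, translation, ubiquitination and lipid metabolism, while others act in signalling or on the surface of leukocytes and neural cells. Their place beside polymorphic genes of antigen presentation is known to complicate genetic association studies of the MHC, since a framework gene is inherited together with its neighbors.

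Each of 12 male BN rats aged 15 weeks gave paw skin for a pair of explants. One was kept for 3 days with PVG lymphocytes (allogeneic), previously cultured for 7 days in an MLR (mixed lymphocyte reaction) on irradiated splenocytes of BN origin, and the other with BN lymphocytes from a BN culture treated in the same way (syngeneic). Both RNA samples of a rat were hybridized together on a two-color Agilent array and again on a second array with the dyes exchanged, so that 24 arrays gave n = 12 rats on 3 slides. The study reports that loose lymphocytes were washed off before freezing and that histology rarely showed infiltrating ones. Explants can still hold some added lymphocytes beside skin cells, and fewer cells of a type cannot be told apart from less RNA per cell. A value below is a log2 ratio, allogeneic over syngeneic, averaged over the probes of a gene and both arrays of a rat. The dye labels set this direction, and values below 0 stand for the weaker signal in the sample labeled as allogeneic. The 24 columns of the deposited series table correlated with it at 0.707 to 0.955, whereas the tables of the study run the opposite way. The study also reports quantitative PCR on part of these sample pairs, for MHC and other genes that are not framework genes. Most of those genes went the way of its tables, and quantitative PCR does not depend on the dye labels of the arrays. The direction is not settled between these sources. Lower, higher, fell and rose below follow the dye labels only, and with the sign turned they change places in every comparison. A gene was called lower or higher at an adjusted p under 0.05 (limma, Benjamini-Hochberg adjustment over all 7257 genes).

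Rat 8 stood apart. The SD of its log2 ratios over the framework genes was 0.529, against 0.111 to 0.199 in the other rats, and its values correlated with the mean of the other rats over all probes at only 0.224, although its own arrays correlated with each other at 0.944. Array 1 of rat 10 was far brighter than all others, and the correlation between both arrays of that rat was 0.133. Counts are therefore also given without rat 8. In each channel of an array, 74.8% to 99.9% of the probe spots were well above background, and the number of rats and arrays limits the precision. None of the keratinocyte marker symbols looked up had a probe. Of 7 epithelial genes chosen after the files were seen, *Dsg4* was above background on 10 of 24 arrays in each sample and the others, such as *Cdh1*, *Jup* and *Perp*, on all 24.

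Several results below rest on sets of probes, and the probe sequences show how far these are independent. All probes had 60 bases. The 5 probes of *Bat5* were shifted against each other by single bases and shared at least 56 bases, as the first 30 bases of the pair farthest apart show, with the bases that belong to the shared run in capitals.
Bat5, probe 1: GCTCCCCATACACACCTGCATTGAATGAGT
Bat5, probe 5: ctcaGCTCCCCATACACACCTGCATTGAAT
The 5 probes of *Trim15* instead lay farther apart, and 7 of their 10 pairs shared fewer than 10 bases. Some of them still overlapped, by a run of at most 20 bases. Below are the first 30 bases of 1 probe and the last 30 of another, again with the shared run in capitals.
Trim15, probe 2: ATTTATAATGACTTTTGGACacaaagctgg
Trim15, probe 3: gcttgtactaATTTATAATGACTTTTGGAC
The probes of *Ng5* and 5 of the 6 probes of *Rnf5* were shifted like those of *Bat5*, while *Kiaa1949* was covered like *Trim15*, with no shared run longer than 19 bases. Agreement among the 5 probes of *Bat5* is thus close to a repeated reading of 1 site.

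Of the 110 framework genes, 9 were lower and 9 higher in the samples labeled as allogeneic, which is 16.4% (limma, adjusted p under 0.05), beside 16.2% of all genes tested. By direction these were 8.18% lower and 8.18% higher, beside 7.57% and 8.61% of all genes. The share of framework genes called was close to the background of the array. Among the other 108 MHC genes of the list, 36 were lower and 4 higher (36 higher and 4 lower with the sign turned), or 37%. The median log2-fold change of the framework genes was -0.0001, and that of all genes 0.012. Log2-fold changes ran from -0.61 to 0.42, so that no framework gene reached a 2-fold change, and 84 of the 110 were smaller than 0.1 in size. With median centring in place of loess the calls were 8 lower and 5 higher. Without rat 8 they were 12 lower and 13 higher, beside 11.4% and 12.7% of all genes (24.1% in both directions), and all 18 genes named below were among them in the same direction.

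**Figure D1:**
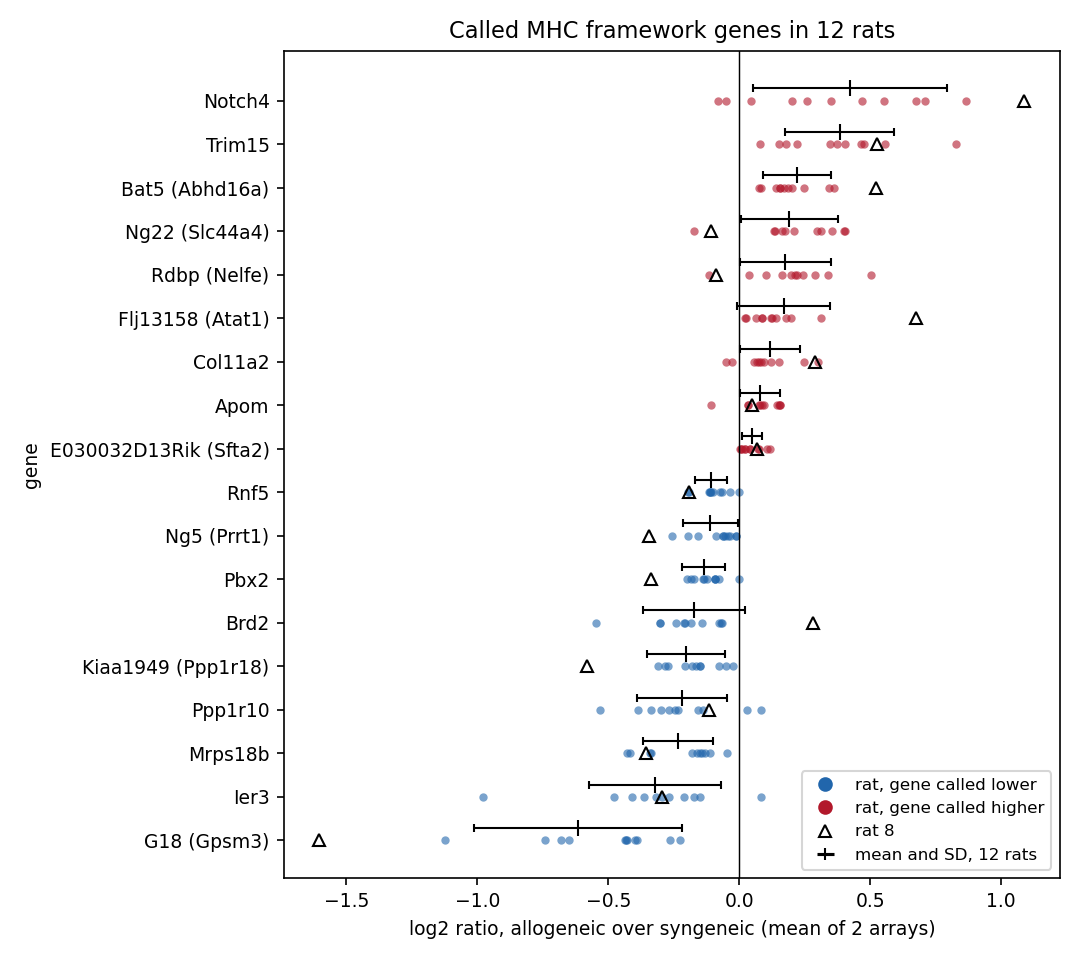
Log2 ratios (x axis, allogeneic over syngeneic) of the 18 called framework genes (y axis) in each of 12 rats, with the mean and SD above each row of points and rat 8 as an open triangle. *G18* lies below 0 in all 12 rats and reaches -1.60 in rat 8, while *Trim15* and *Bat5* lie above 0 in all 12.

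The signalling genes held the lowest and the highest value of the set. Of 12 genes of signalling and stress response, 3 fell, 1 rose and 8 did not pass the test, with a median of -0.015. *G18* (now *Gpsm3*), which encodes a regulator of G protein signalling found mainly in leukocytes, had log2 ratios from -1.60 to -0.23 with a median of -0.43. All 12 rats were below 0, with rats 8 and 9 far under the rest. Its log2-fold change was -0.61 (SD 0.40), or 1.53-fold lower, with an adjusted p of 0.0022 (limma), and -0.52 without rat 8.

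*Notch4*, a Notch receptor known from endothelial cells, ranged from -0.08 to 1.09 with a median of 0.41. Only rats 7 and 12 lay below 0, and rats 8 and 1 were highest. It rose by 0.42 (SD 0.37), or 1.34-fold, with an adjusted p of 0.012 (limma). With the allogeneic sample in Cy5 the value was 0.25 and did not pass the test (adjusted p = 0.0966), whereas with that sample in Cy3 it was 0.60. Its mean was 0.55 and 0.57 on slides 1 and 2 and 0.15 on slide 3. The difference between slides passed in none of the 110 framework genes (limma F test), of which 2 had an unadjusted p under 0.05, beside 2.48% of all genes.

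*Ier3*, an early response gene that is induced by stress and inflammatory signals and limits apoptosis, ranged from -0.98 in rat 10 to 0.08 in rat 3, with a median of -0.29. It was lower in 11 of 12 rats, and its log2-fold change was -0.32 (SD 0.25, adjusted p = 0.0069, limma). *Ppp1r10*, which encodes a nuclear targeting subunit of protein phosphatase 1, ranged from -0.53 to 0.08 with a median of -0.24. Rats 7 and 12 were the exceptions above 0, and the log2-fold change was -0.22 (SD 0.17, adjusted p = 0.0075, limma). Both calls held in every alternative fit that was run.

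*Csnk2b*, the regulatory subunit of casein kinase 2, shows how far 1 rat could carry a mean and was picked for that after its values were seen. Its log2 ratio was 3.26 in rat 8 and -0.22 to 0.31 in the others. The mean of 0.27 did not pass the test (adjusted p = 0.529, limma) and was 0.0024 without rat 8.

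In the group of transcription and chromatin, 2 of 19 genes fell, 1 rose and 16 did not pass the test, with a median of -0.017. *Brd2*, a bromodomain protein that binds acetylated histones, ranged from -0.55 to 0.28 with a median of -0.20. It lay below 0 in all rats but rat 8. The log2-fold change was -0.17 (SD 0.19, adjusted p = 0.0452, limma). This call held without rat 8 (-0.21, adjusted p = 0.0023) but was lost when any other rat was left out, with an adjusted p of up to 0.088. It was also lost with the allogeneic sample in Cy3 (-0.082, adjusted p = 0.234, limma), in the mixed-effects ANOVA (adjusted p = 0.0629) and in the exact signed-rank test (adjusted p = 0.0733). *Pbx2*, a homeodomain partner of Hox proteins, ranged from -0.34 to 0.0009 with a median of -0.13. Its log2-fold change was -0.14 (SD 0.083, adjusted p = 0.0027, limma), and rat 10 was the only rat not below 0. *Pbx2* was -0.21 with the allogeneic sample in Cy5 and -0.058 in the other orientation, where it did not pass (adjusted p = 0.129).

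*Rdbp* (now *Nelfe*), a subunit of the negative elongation factor of RNA polymerase II, ranged from -0.11 to 0.50 with a median of 0.20. Only rats 3 and 8 were below 0. It rose by 0.18 on the log2 scale (SD 0.17, adjusted p = 0.0253, limma). The call was lost without rat 2, 7, 11 or 12, with an adjusted p of up to 0.0546, and with 5 of the other alternatives.

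Among 13 genes of RNA processing and translation, 1 fell and 12 did not pass, with a median of -0.015. *Mrps18b*, a protein of the small mitochondrial ribosomal subunit, had log2 ratios from -0.43 to -0.05 with a median of -0.17. All 12 rats were below 0, and so were all 5 probes, which ran from -0.25 to -0.22 and were each called lower. Pairs of these probes shared runs of up to 40 of their 60 bases, so the probes are only partly independent. Its log2-fold change was -0.23 (SD 0.13, adjusted p = 0.0012, limma). With the allogeneic sample in Cy5 it was -0.10 and did not pass (adjusted p = 0.0671), and with that sample in Cy3 it was -0.37. *Bat1a* (now *Ddx39b*), an RNA helicase of mRNA export that was picked after its values were seen, had a larger mean of 0.29 but did not pass (adjusted p = 0.0678). Its log2 ratio was 1.42 in rat 8 and -0.05 to 0.35 in the others, and without rat 8 it passed at 0.19 (adjusted p = 0.0014, limma).

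The 8 measured TRIM and RING genes, which encode or are related to ubiquitin ligases, had 1 gene lower, 1 higher and 6 that did not pass. *Trim15*, a TRIM protein of focal adhesions, had log2 ratios from 0.08 to 0.83 with a median of 0.39. No rat was below 0, rat 1 was highest and rat 12 lowest. It rose by 0.38 (SD 0.21), or 1.30-fold, with an adjusted p of 0.00075 (limma), which was the smallest of the set. Each of its 5 probes rose, by 0.35 to 0.42. *Trim10* and then *Trim40*, named because they follow it on the map, had log2-fold changes of 0.08 and -0.0093. Neither passed (adjusted p = 0.0818 and 0.699, limma). *Trim26*, named as its neighbor on the other side, did not pass either. No probe of one TRIM gene of the set shared a run longer than 9 bases with a probe of another.

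*Rnf5*, a membrane-bound ubiquitin ligase of the endoplasmic reticulum, ranged from -0.20 to -0.0005 with a median of -0.11. All 12 rats were below 0, and its log2-fold change was -0.11 (SD 0.062, adjusted p = 0.0025, limma). The catalog probe gave -0.24 and the 5 overlapping custom probes -0.10 to -0.07, each called lower. *Rnf5* was -0.058 where the allogeneic sample was in Cy3 and did not pass there (adjusted p = 0.0614), nor with median centring (adjusted p = 0.056).

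**Figure D2:**
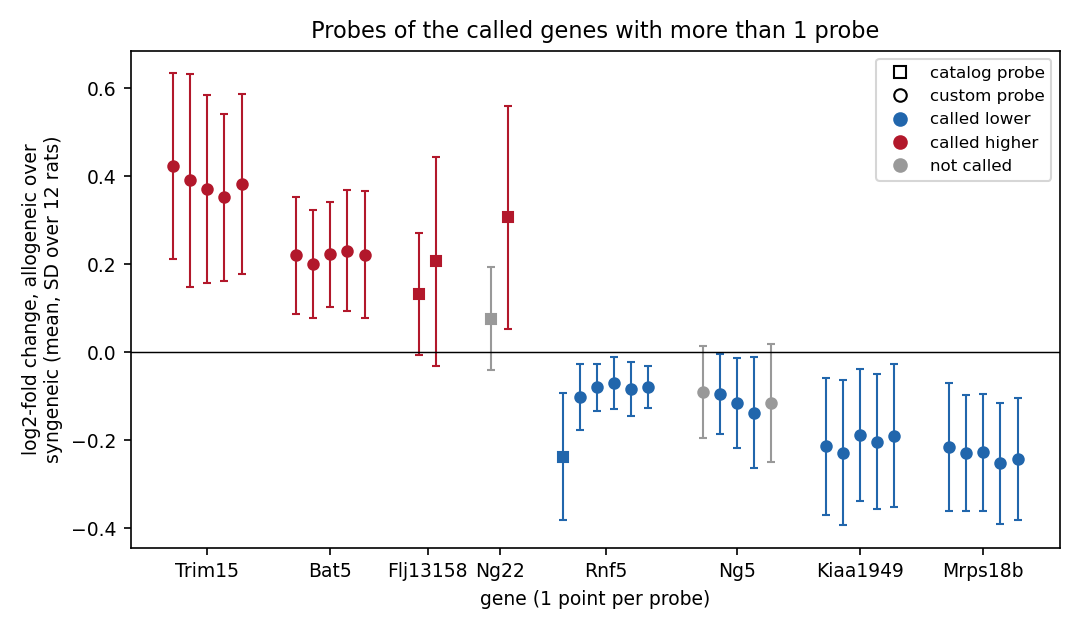
Log2-fold change (y axis, mean with SD over 12 rats) of each probe of the 8 called genes that had more than 1 probe, with squares for catalog and circles for custom probes and colors for the call of the probe. No gene has called probes on both sides of 0, and in *Rnf5* the catalog probe (-0.24) lies apart from the 5 custom probes.

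Of 13 genes of enzymes, lipid metabolism and transport, 3 rose, none fell and 10 did not pass, with a median of -0.0056. *Bat5* (now *Abhd16a*), a phosphatidylserine lipase, had log2 ratios from 0.07 to 0.52 with a median of 0.18. It was above 0 in all 12 rats, with rat 8 highest. It rose by 0.22 (SD 0.13, adjusted p = 0.0015, limma). The value was 0.34 with the allogeneic sample in Cy5 and 0.10 in the other orientation, where it did not pass (adjusted p = 0.0672).

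*Ng22* (now *Slc44a4*), a choline transporter-like protein, ranged from -0.17 to 0.40 with a median of 0.19, and rats 3 and 8 were below 0. It rose by 0.19 (SD 0.18, adjusted p = 0.021, limma). Only 1 of its 2 probes was called, at 0.31, and the other was at 0.08 (adjusted p = 0.142). *Apom*, an apolipoprotein that carries sphingosine 1-phosphate, ranged from -0.11 in rat 3 to 0.15, with a median of 0.08. It was higher in 11 of 12 rats by 0.08 (SD 0.075, adjusted p = 0.0301, limma). This call was lost without any 1 of rats 1, 2, 4, 5, 7, 10, 11 and 12, with an adjusted p of up to 0.0656, and under 5 of the other alternatives, with an adjusted p of up to 0.0896.

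Among 8 genes of the cytoskeleton, membrane traffic and matrix, 1 fell, 2 rose and 5 did not pass. *Kiaa1949* (now *Ppp1r18*), an actin-binding targeting subunit of protein phosphatase 1, ranged from -0.58 in rat 8 to -0.02, with a median of -0.17. All 12 rats were below 0. The log2-fold change was -0.20 (SD 0.15, adjusted p = 0.005, limma), and each of its 5 probes was called lower, at -0.23 to -0.19. *Flj13158* (now *Atat1*), the acetyltransferase of alpha-tubulin, ranged from 0.02 to 0.67 with a median of 0.12. All 12 rats were above 0, and rat 8 was far above the others, of which the highest was rat 10 at 0.31. It rose by 0.17 (SD 0.18, adjusted p = 0.0326, limma). The call held at 0.12 without rat 8 (adjusted p = 0.0039), and it was lost without rat 2, 4, 5, 9 or 10 (adjusted p of up to 0.0639), with plain background subtraction (0.0572) and in the series table (0.0567).

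*Col11a2*, a chain of the fibrillar collagen XI, ranged from -0.05 to 0.30 with a median of 0.09, and rats 9 and 10 were below 0. It rose by 0.12 (SD 0.11, adjusted p = 0.0251, limma), and the call was lost without rat 1 or 2 (adjusted p of up to 0.0547), with median centring (0.0838) and with the allogeneic sample in Cy3 (0.355). A second probe with this symbol, which the MHC gene list does not hold, had a log2-fold change of -0.07 and did not pass (adjusted p = 0.0605). With it averaged in, *Col11a2* was at 0.03 (adjusted p = 0.463).

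The 21 other or uncharacterised genes held 1 lower, 1 higher and 19 that did not pass. *Ng5* (now *Prrt1*), a proline-rich transmembrane protein, ranged from -0.34 to -0.01 with a median of -0.06. It was below 0 in all 12 rats, with rats 8 and 9 lowest. Its log2-fold change was -0.11 (SD 0.11, adjusted p = 0.0248, limma), and it was lost without rat 5, 9 or 12 (adjusted p of up to 0.0551). With the allogeneic sample in Cy5 it was -0.033 and did not pass (adjusted p = 0.509), and with that sample in Cy3 it was -0.19. The mean log2 level of *Ng5* was 6.78 in the allogeneic and 6.89 in the syngeneic samples.

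*E030032D13Rik* (now *Sfta2*), a surfactant-associated protein, ranged from 0.0014 to 0.12 with a median of 0.04. All 12 rats were above 0, by little. Its log2-fold change of 0.05 (SD 0.039, adjusted p = 0.0397, limma) was the smallest of those called. It was 0.11 with the allogeneic sample in Cy5 and -0.017 in Cy3, so that the sign was not the same in both orientations. The call was also lost without any 1 of rats 1, 3, 4, 7, 9, 11 and 12 (adjusted p of up to 0.0833), and under 6 further alternatives (adjusted p of up to 0.172), among them the slide as a block (0.06).

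No gene passed among the 7 butyrophilin-like genes, the 6 leukocyte and neural surface proteins and the 3 chaperones, with medians of 0.0052, 0.021 and 0.0029. Butyrophilins are immunoglobulin superfamily proteins that regulate T cells. Their log2-fold changes here ran from -0.067 to 0.013. In this family probes of different genes shared runs of up to 43 bases (*Btnl7* and *Btnl8*), and the array files name the probes of some of these genes differently from the MHC gene list, so that the values of single members are uncertain. The highest and lowest of the surface proteins were at 0.09 and -0.05.

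Across single probes, 52 of the 282 were called, 28 lower and 24 higher, beside 17.3% of all probes, 8.48% lower and 8.78% higher. They belonged to 28 framework genes, of which 13 had lower, 15 had higher and 0 had both kinds of called probes. For 10 of these genes the mean over the probes did not pass. An example picked after its values were seen is *Abcf1*, a translation factor of the ABC family, with 1 of 5 probes lower and a mean of -0.12 (adjusted p = 0.359, limma). Its log2 ratio was 0.72 in rat 8 and -0.52 to -0.0069 in the other 11 rats, and without rat 8 it passed at -0.20 (adjusted p = 0.0048). The framework genes that passed only without rat 8 were 3 lower and 4 higher.

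**Figure D3:**
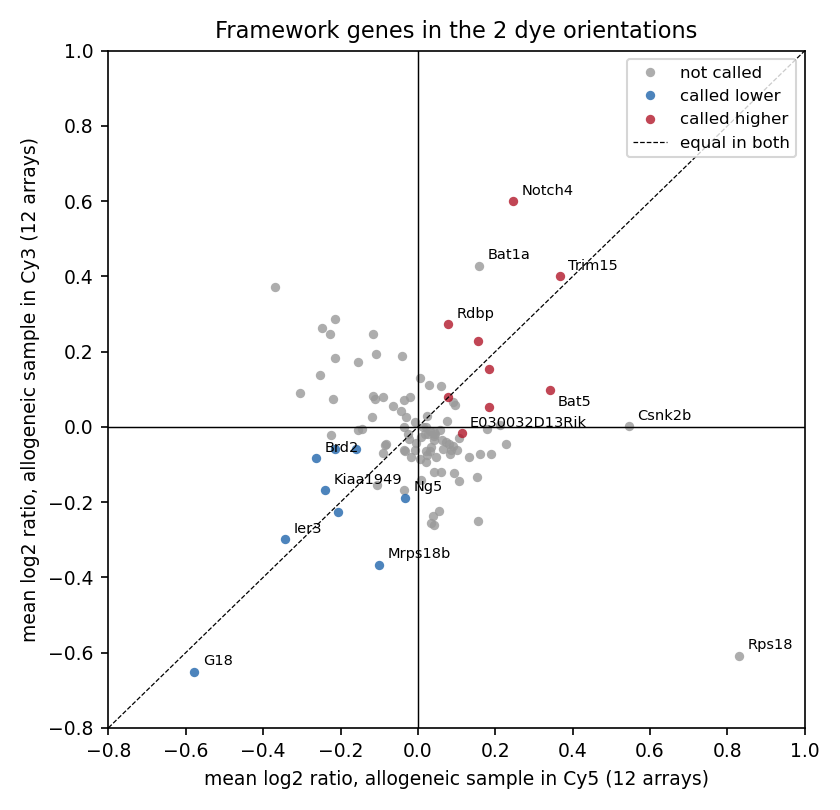
Mean log2 ratio of each of the 110 framework genes on the 12 arrays where Cy5 labels the allogeneic sample (x axis) and the 12 with that sample in Cy3 (y axis), with the dashed line where both are equal. *G18* lies close to the line at -0.58 and -0.65, while *Rps18*, at 0.83 and -0.61, is the farthest from it.

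Each value is an average over both dye orientations. The mean log2 ratio had opposite signs in the orientations for 67 of the 110 framework genes (60.9%), beside 51.2% of all genes. *Rps18*, a ribosomal protein gene picked after its values were seen, was at 0.83 with the allogeneic sample in Cy5 and at -0.61 in Cy3. Of the 18 called genes, 17 had the same sign in both orientations, and *E030032D13Rik* did not. All 18 had the same sign on the 3 slides. The calls were made on the mean over these same arrays, which favors genes that keep their sign, so these counts are no independent support for them. The same sign in all 12 rats was found for 9 framework genes, 5 lower and 4 higher, and each of them was called. In the whole array 3.25% of genes were lower and 2.65% higher in all 12 rats.

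Most framework genes gave a signal above background in the explants, where any probe of a gene was enough to count it. In *1700031A10Rik*, for example, the catalog probe was above background on all 24 arrays in each sample, but its custom probes on at most 2. The same count over all genes is not given here. A probe was well above background in both samples on all 24 arrays for 99 of the 110 genes, among them 17 of the 18 called genes, with *Ng5* on 22 and 23 arrays as the exception. *Ng35*, *G6b*, *CB741658* and *9430032L10Rik* were above background on fewer than 12 arrays in both samples, and none of these was called.

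**Figure D4:**
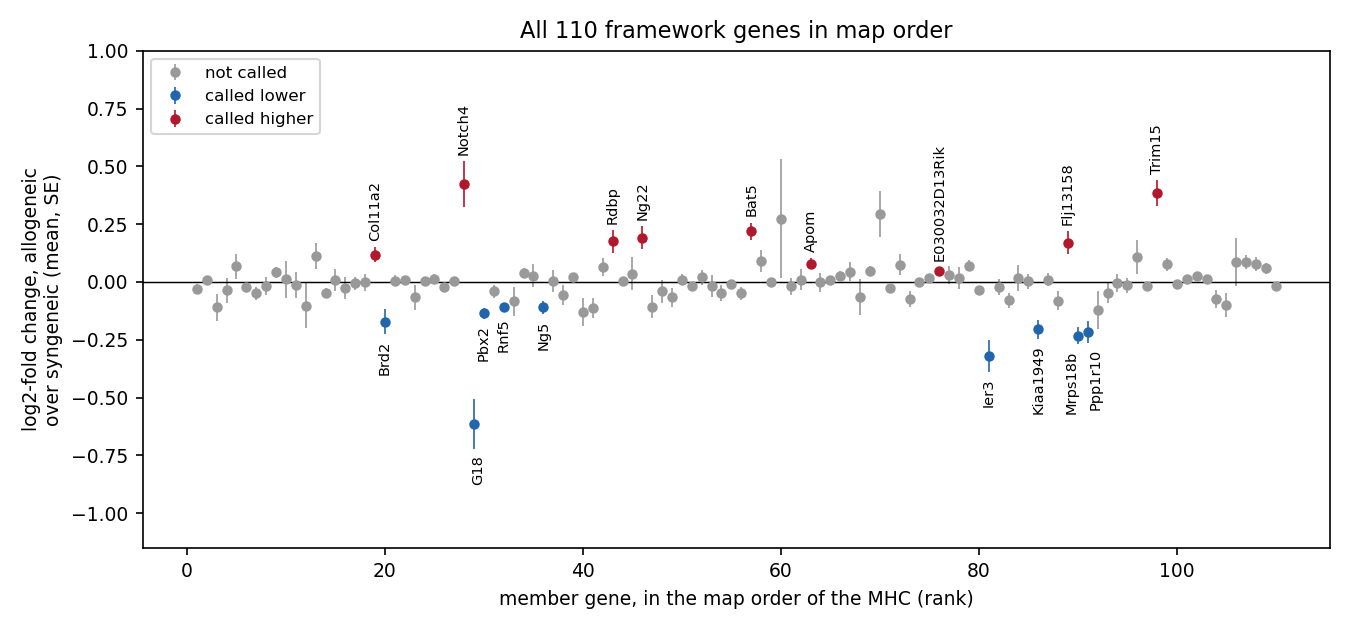
Log2-fold change (y axis, mean with SE, n = 12 rats) of the 110 framework genes in their map order along the MHC (x axis, rank among these genes). Genes called lower and higher stand side by side, as in *Notch4* (0.42) and *G18* (-0.61).

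On the map, called genes of both directions were neighbors. In the RefSeq annotation of build GRCr8, *Notch4* (chr20:4164969-4189072, higher) is followed by *G18* (chr20:4161730-4163591, lower) and *Pbx2* (chr20:4156107-4161503, lower). *Ager*, named as a neighbor, did not pass, and *Rnf5* (chr20:4150032-4152593, lower) came after it. In the segment from *Notch4* to *Bat1a*, 4 of 43 framework genes were lower and 5 higher, and in that from *Pou5f1* to *9430032L10Rik* 4 of 40 were lower and 3 higher. In the remaining segments, 1 of 19 genes up to *Col11a2* was higher and 1 of 8 from *Brd2* to *Btnl9* was lower.

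*Mrps18b* (chr20:2842978-2849065) and *Ppp1r10* (chr20:2827802-2842418) were both lower and are transcribed away from each other, from starts that lie 588 bases apart in the RefSeq promoter table. The 250 bases before each start are shown because the pair is transcribed outward from this stretch of DNA, with matches to a GC box (GGGCGG) or a CCAAT box (CCAAT) on either strand in capitals. The windows are chr20:2842756-2843005 on the plus strand for *Mrps18b* and chr20:2842419-2842668 on the minus strand for *Ppp1r10*, both in GRCr8. The last 28 bases of the *Mrps18b* window lie within the gene range given above, which begins before the start used in the promoter table.
Mrps18b: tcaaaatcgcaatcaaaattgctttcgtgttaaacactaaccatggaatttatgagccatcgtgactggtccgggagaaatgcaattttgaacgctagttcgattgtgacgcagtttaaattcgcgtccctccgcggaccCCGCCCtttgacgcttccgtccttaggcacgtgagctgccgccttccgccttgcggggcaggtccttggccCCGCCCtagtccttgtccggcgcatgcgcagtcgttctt
Ppp1r10: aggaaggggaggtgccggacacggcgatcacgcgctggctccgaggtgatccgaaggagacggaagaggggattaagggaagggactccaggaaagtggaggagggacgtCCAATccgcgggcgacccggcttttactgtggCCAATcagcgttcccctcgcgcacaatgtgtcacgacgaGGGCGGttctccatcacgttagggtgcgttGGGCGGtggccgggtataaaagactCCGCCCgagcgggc
*Atat1*, the current symbol of *Flj13158* and the next gene beyond *Mrps18b*, was higher.

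The windows before *Notch4* (chr20:4189073-4189322) and *G18* (chr20:4163592-4163841), both on the minus strand of GRCr8, are shown because these neighbors were called in opposite directions. They hold none of the 6 motifs searched, which says only that these letters are not in them.
Notch4: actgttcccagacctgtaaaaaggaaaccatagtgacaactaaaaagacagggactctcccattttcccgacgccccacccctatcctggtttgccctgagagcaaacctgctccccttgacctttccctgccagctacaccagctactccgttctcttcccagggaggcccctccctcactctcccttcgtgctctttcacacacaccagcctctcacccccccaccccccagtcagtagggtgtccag
G18: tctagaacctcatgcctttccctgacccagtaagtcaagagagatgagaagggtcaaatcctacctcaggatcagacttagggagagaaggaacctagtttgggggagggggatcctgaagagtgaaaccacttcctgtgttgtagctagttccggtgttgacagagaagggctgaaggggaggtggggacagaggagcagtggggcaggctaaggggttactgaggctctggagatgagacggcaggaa
A window was in the table for 78 of the 110 framework genes, 7 of those called lower and 7 of those called higher; *Ier3*, *Ng5*, *Trim15* and *Bat5* are named only.

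A GC box was in 52.6% of the 78 windows and in 30.5% of all 33469 windows of the table. It was in 6 of the 7 windows of genes called lower and 4 of the 7 of genes called higher. A CCAAT box was in 39.7% of the framework windows and 34% of all, an ETS motif (CCGGAAG) in 21.8% and 7.27%, and a cyclic AMP response element (TGACGTCA) in 6.41% and 1.59%. An AP-1 site (TGACTCA) was in 5.13% and 4.05%, and a STAT site (TTCNNNGAA) in 5.13% and 7.67%. No window of a called gene held the ETS, STAT or AP-1 letters.

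Genes of the same families outside the MHC were read beside the called framework genes. Of 19 Notch receptors, ligands and targets, *Hes6*, a target-like repressor, rose by 0.23 (adjusted p = 0.0058, limma) and *Numb*, an inhibitor of Notch, had a log2-fold change of -0.12 (adjusted p = 0.009), and the other 17 did not pass. Of 19 PBX, MEIS and Hox genes, 5 rose (26.3%, beside 8.61% of all genes) and none fell, with a median of 0.032 over the 19. The 5 were *Hoxa5* (0.37), *Hoxa2* (0.23), *Hoxc5* (0.23), *Hoxc6* (0.09) and *Hoxb9* (0.09). *Hoxa2* was above background on 21 arrays in the allogeneic and only 12 in the syngeneic samples, and *Hoxb9* on 24 and 19. Of 6 further TRIM genes, *Trim27* was lower at -0.15 (adjusted p = 0.014, limma), and the 3 bromodomain genes, 3 mitochondrial ribosomal protein genes and 1 butyrophilin gene did not pass. No tubulin outside the MHC had a probe with such a symbol.

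*Ier3* was read beside 19 immediate early genes, which respond to stimuli without new protein synthesis. Of these, 5 fell and 2 rose, with a median of -0.12. *Zfp36*, which destabilizes cytokine mRNAs, was at -0.44, *Dusp1* at -0.39, *Jund* at -0.36, *Nr4a1* at -0.31 and *Fosl1* at -0.12. The transcription factors *Egr1* (0.49, adjusted p = 0.00017, limma) and *Egr2* (0.34, adjusted p = 0.0485) rose.

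Markers of other cell types moved as well. Of 13 measured macrophage markers, 6 were lower and 2 higher, and their summed log2 level was 14.7 to 15.9 in the allogeneic and 15.0 to 16.5 in the syngeneic samples, lower in the allogeneic sample of all 12 rats, as was *G18*. Such a sum is carried mostly by the brightest genes of a list. *Fcgr3a* was lowest at -2.19, while *C1qa* (0.21) and *C1qc* (0.19) were the markers called higher. Of 14 T cell markers 5 were lower and none higher, with summed levels of 11.81 to 13.02 and 11.99 to 13.34, and of 8 NK cell markers 3 were lower, with 10.7 to 11.2 and 10.8 to 11.3. The 4 B cell markers did not pass, at 8.74 to 10.9 and 8.85 to 11.1. Endothelial markers moved in the direction of *Notch4*, with 4 of 7 higher and a summed level of 13.5 to 14.7 against 13.2 to 14.5, higher in all 12 rats, among them *Cdh5* (0.33) and *Icam2* (0.39). Of 3 fibroblast markers, *Col1a2* was higher at 0.55, with summed levels of 12.6 to 15.2 and 12.0 to 14.5, and none of 15 cell cycle genes passed. Of the 7 epithelial genes, *Perp* was higher at 0.69 (adjusted p = 0.0333, limma) and the others did not pass, with a median of 0.20 over the 7. No marker measured was below background on every array. The part of these cell types in the values of the framework genes was not tested.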

How the data were processed

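The members and lists were chosen with earlier results of these data known. The authors deposited 1 scanner file per array, with mean intensity and local background per spot in Cy3 and Cy5, extracted by the Feature Extraction software without normalization, and a series table of log2 ratios made by the authors. Every array was assigned to its rat and dyes by the sample labels. The amplification kit named by the labels differs from that of the methods, and so does the software version in the file headers.

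Mean intensities were corrected by normexp (offset 50) and normalized by loess within arrays, without control and outlier spots, with limma 3.58.1 and statmod 1.5.0 in R 4.3.3; files were read with data.table, version 1.17.8. Ratios of swapped arrays were multiplied by -1. Means were taken over spots of a probe, probes of a gene and arrays of a rat, and the 12 rat means were tested against 0 by limma. Absolute levels were set on a common scale by Aquantile normalization. On simulated data of 7257 genes this test called 74% of genes changed by 0.25 and 90% of those changed by 0.5 on the log2 scale. There 3.19% of its calls were false. Whether these shares hold for the measured arrays, where rat 8 stood apart, was not tested.

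The genes named are first the 6 listed as markers of the set (*Notch4*, *Brd2*, *Pbx2*, *Ier3*, *Bat5*, *Trim15*), which do not define it. Next come 3 further genes that the study lists as regulated, and the largest called gene of each role list. Up to 10 called genes of the lowest and up to 10 of the highest log2-fold change were also taken. Only 9 of each were called, and all are named. Genes outside this rule are marked as picked after their values were seen or named as map neighbors, and those given for dim probes, shared probe sequence or as ends of map segments are outside it too. The probes and their genes were taken from the study's MHC gene list, and promoter windows and positions from RefSeq (GRCr8), in which 103 of 110 genes matched; 4 further matches were dropped because they lay off chromosome 20 or were shared by a pair of members. Alternatives concerned the background, normalization, dye orientation, dim probes, outlier spots, slide, test, the deposited table of the series and each rat, and the mixed-effects ANOVA of the methods was among them. Figures were drawn with matplotlib.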

Additional observations from a re-analysis of the deposited data

How the results depend on the processing

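Counts of called framework genes moved most with the dye orientation. With the allogeneic sample in Cy5 alone, 19 genes were lower, 19 higher and 107 probes called, and with that sample in Cy3 alone 22, 18 and 97. Of the alternatives, only the fit without rat 8 is set beside the share of all genes called. The other counts are not read against the background of the array. Median centring gave 5 higher genes, and leaving out rats 8 and 10 together, chosen after seeing the data, gave 14. Leaving out each rat in turn gave 7 to 12 lower genes, 5 (without rat 2) to 13 (without rat 8) higher genes and 39 to 62 called probes. All other alternatives stayed within 1.5 times the counts given. With 24 arrays and the rat as a replicate block, 10 genes were lower, 13 higher and 59 probes called. Of 18 genes under 16 such alternatives, 256 of 288 values kept direction and call and 31 lost the call. The exception in direction was *E030032D13Rik*, at -0.017 with the allogeneic sample in Cy3. Leaving out 1 rat turned no sign and ended 40 of 216 calls. *G18*, *Ng22*, *Ier3*, *Kiaa1949*, *Ppp1r10* and *Trim15* were called throughout. The cause of these shifts was not tested. The number of rats and arrays limits the precision, and for *Ng5* also the signal, which was not above background on all arrays.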
